A study of Mus musculus with 20 samples.

Results

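The cartilage collagens of types II, IX and XI are the products of 6 mouse genes, Col2a1, Col9a1, Col9a2, Col9a3, Col11a1 and Col11a2. Every probe set whose gene symbol is one of these was taken, which gave 9 probe sets of the 45037 non-control probe sets on the array, and 6 genes of 17097 with a probe set of 1 symbol. Col9a1, Col9a3 and Col11a1 have a pair of probe sets each. All 9 passed the filter on low signals, which kept 26897 probe sets.

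The arrays came from 4 groups of mouse samples, 20 arrays in all. CDS (6 arrays) are sarcomas that formed under the skin of Balb/c nude mice from embryonic mesenchymal cells carrying the fusion of the repressor CIC with the transcription factor DUX4, delivered by the retrovirus pMYs-CIC-DUX4-IRES-GFP. ES (6 arrays) are mouse tumors labelled Ewing sarcoma, for which the labels give the same growth under the skin of Balb/c nude mice; the way they were made is not given in the sources used here. eMC CIC-DUX4 (4 arrays) are primary embryonic mesenchymal cells in culture, 48 hours after transduction with that retrovirus, and eMC empty (4 arrays) are the same kind of cells 48 hours after transduction with pMYs-IRES-GFP, so both carry an IRES-GFP vector. The sources used here do not give strain and age of the embryos or say whether transduced cells were sorted. They do not name separate cultures behind the eMC arrays either, and a p-value then covers the spread between these samples alone.

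Collagen II forms the main fibril of hyaline cartilage, and its chain is encoded by Col2a1. Collagen XI lies in the core of the same fibril and limits its width; Col11a1 and Col11a2 encode 2 of its chains, and the remaining one is made from Col2a1. Collagen IX, built of one chain each from Col9a1, Col9a2 and Col9a3, is bound to the fibril surface and links it to the surrounding matrix. In chondrocytes the transcription factor Sox9, with Sox5 and Sox6, is known to drive several of these genes. Not all of the genes are confined to cartilage, and Col11a1 in particular is also made in other mesenchyme.

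Values are log2(signal + 1.42), a log2 signal in short. The arrays' distributions differed: the median log2 signal ranged from 2.78 to 5.67 in CDS, 2.40 to 2.85 in ES, 2.33 to 7.05 in eMC CIC-DUX4, against 2.60 to 3.28 in eMC empty, with CDS 2, eMC CIC-DUX4 5 and eMC CIC-DUX4 6 above 5. Each array but eMC CIC-DUX4 6 had a dip in its distribution, between 3.36 and 8.19, that parts its dim from its bright probe sets; a probe set below the dip is treated as not above background. Where a whole group lies below it, a called difference is given as "at least" a fold, a bound on the deposited scale; the fitted log2 changes beside it, on either scale, rest there on background signals and are no exact folds, and quantile values can lie under the bound. Each fold change is given on the deposited scale and again, marked "quantile", with all arrays brought to 1 shared distribution by quantile normalization. It lowered the median SD within groups from 1.26 to 0.488 over all probe sets tested. Degraded RNA shows in the 3′ minus the 5′ log2 signal of Actb, which averaged 0.80 ± 0.36 in CDS (SD, n = 6), against 0.25 ± 0.05 in ES (n = 6), and for the cultures 0.22 ± 0.02 (eMC CIC-DUX4, n = 4) and 0.17 ± 0.03 (eMC empty, n = 4). Its part in the results was not tested. The labels were set against marker genes: all 5 genes of a CIC-DUX4 activity list lay above the dip in every CDS array, and Etv1, Etv5 and Vgf did so in the 3 eMC CIC-DUX4 arrays that have one, where Muc5ac did in 1 and Etv4 in none; in eMC empty Etv5 alone did, in 1 of 4. Of 5 Ewing sarcoma markers, Prkcb and Steap1 were above the dip in 5 of 6 ES arrays each. Gli1 was in 3, Nkx2-2 in 1 and Nr0b1 in 0. Prkcb and Steap1 did not set ES apart, as each also exceeded all 3 dips of eMC CIC-DUX4. Prkcb did so in 5 of 6 CDS arrays (mean 9.43, against 8.03 in ES) and in 0 of 4 eMC empty arrays. Steap1 did so in 4 of 4 eMC empty arrays (mean 11.79, against 7.47 in ES) and in 2 of 6 CDS arrays. Gli1 was above the dip in 1 eMC CIC-DUX4 array and in 0 of CDS and eMC empty.

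Col2a1 was bright in CDS and in both kinds of eMC and dim in ES. Its probe set 1450567_PM_a_at ranged from 12.54 to 13.73 in CDS, with a median of 13.08, and from 1.89 to 2.31 in ES, with a median of 2.20. It read 12.71, 12.51, 12.89 and 12.92 in eMC CIC-DUX4, against 11.72, 11.56, 11.66 and 11.48 in eMC empty. No ES array overlapped any other array, and none lay above its own dip. Col2a1 was thus already bright in the cells that received the empty vector.

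**Figure D1:**
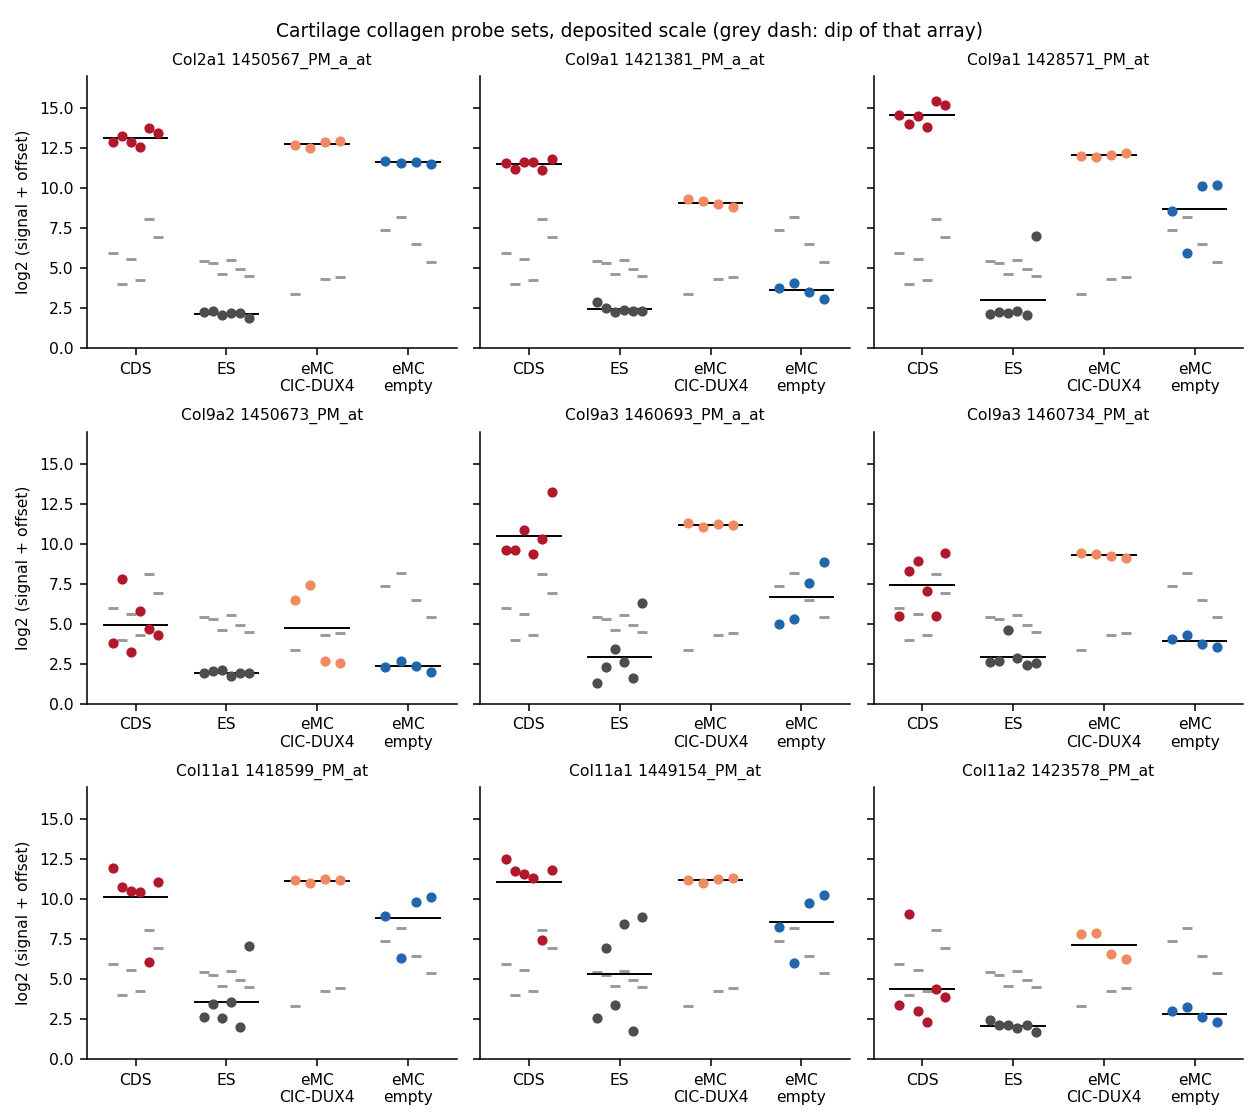
Log2 signal (vertical axis) of the 9 probe sets in every array, by group; points are arrays, black lines group means and grey dashes the dip of each array (eMC CIC-DUX4 6 has none). Col2a1 lies between 11.48 and 13.73 in CDS and both eMC groups and between 1.89 and 2.31 in ES, and Col9a1 is highest in CDS.

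Of the collagen IX genes, Col9a1 had its highest signals in CDS. Probe set 1421381_PM_a_at ranged from 11.12 to 11.82 in CDS, with a median of 11.58, and from 2.24 to 2.86 in ES, with a median of 2.36. It read 9.30, 9.20, 8.99 and 8.85 in eMC CIC-DUX4, against 3.79, 4.06, 3.52 and 3.05 in eMC empty. CDS lay above eMC CIC-DUX4 without overlap at this probe set, and both lay above all ES and eMC empty arrays, which were below their dips. The other probe set, 1428571_PM_at, ranged from 13.81 to 15.42 in CDS, with a median of 14.52, and from 2.10 to 6.98 in ES, with a median of 2.23. It read 12.01, 11.92, 12.09 and 12.20 in eMC CIC-DUX4, against 8.55, 5.94, 10.14 and 10.22 in eMC empty. Here 3 of 4 eMC empty arrays were above the dip, and in ES only ES 51 was, so the pair of probe sets disagrees on whether Col9a1 was measurable in eMC empty.

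Col9a1 has 2 annotated starts in RefSeq (GRCm38.p6), and the longer collagen IX chain of cartilage and a shorter form, best known from the eye, begin at different ones. The sources used here do not say which start each probe set reads. The 250 bases before both starts are shown with the same stretch of Col11a2, because both Col9a1 probe sets were above the dip in all 6 CDS arrays and Col11a2 in 1. Capitals mark CG pairs, and all 3 stretches are on the plus strand.
Col9a1, chr1:24177360-24177609: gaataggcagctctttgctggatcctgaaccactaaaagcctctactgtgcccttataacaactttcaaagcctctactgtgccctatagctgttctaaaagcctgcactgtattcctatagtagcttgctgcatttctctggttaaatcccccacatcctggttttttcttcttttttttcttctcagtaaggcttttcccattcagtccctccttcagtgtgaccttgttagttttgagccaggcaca
Col9a1, chr1:24194953-24195202: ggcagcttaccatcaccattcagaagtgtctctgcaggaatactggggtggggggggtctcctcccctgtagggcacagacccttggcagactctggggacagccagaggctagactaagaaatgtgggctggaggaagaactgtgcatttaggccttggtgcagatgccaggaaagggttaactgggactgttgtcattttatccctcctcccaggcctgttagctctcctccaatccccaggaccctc
Col11a2, chr17:34038888-34039137: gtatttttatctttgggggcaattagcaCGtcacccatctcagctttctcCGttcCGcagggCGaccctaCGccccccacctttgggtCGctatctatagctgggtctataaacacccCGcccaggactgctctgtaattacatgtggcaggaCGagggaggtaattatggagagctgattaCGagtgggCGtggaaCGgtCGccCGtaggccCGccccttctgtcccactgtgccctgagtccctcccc

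Both Col9a1 stretches hold 0 CG pairs, as do 7.87% of the 32851 promoters of the same length, against 14 in Col11a2, 9 in Col9a2, 7 in Col11a1 and a median of 6 over all promoters. Motifs were searched on both strands: ACAAAG and ACAATG (SOX factors), TGAATGAA and TGAATGGA (CIC), CCGGAAGT (ETS factors) and TGACTCA (AP-1). The 5 stretches of 4 members held 0 matches. Of all promoters, 16.5% hold ACAAAG, 10.7% ACAATG, 1.08% TGAATGAA, 1.01% TGAATGGA, 2.88% CCGGAAGT and 4.46% TGACTCA, so most promoters lack each of them too.

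Col9a2 and Col9a3 encode the partner chains of Col9a1. Col9a2 (1450673_PM_at) ranged from 3.24 to 7.78 in CDS, with a median of 4.47, and from 1.73 to 2.11 in ES, with a median of 1.94. It read 6.46, 7.43, 2.64 and 2.52 in eMC CIC-DUX4, against 2.32, 2.65, 2.37 and 1.97 in eMC empty. It was above the dip in 2 of 6 CDS arrays, in eMC CIC-DUX4 5 alone of the 3 arrays of that group with a dip, and in no array of ES or eMC empty; its high values in CDS 2 and eMC CIC-DUX4 5 and 6 are those of the 3 arrays of high median. Col9a3 (1460693_PM_a_at) ranged from 9.37 to 13.22 in CDS, with a median of 9.96, and from 1.32 to 6.30 in ES, with a median of 2.43. It read 11.30, 11.04, 11.24 and 11.19 in eMC CIC-DUX4, against 4.96, 5.27, 7.54 and 8.86 in eMC empty. CDS 6 alone of the CDS arrays exceeded eMC CIC-DUX4, and ES 51 alone of the ES arrays lay above its dip. The other Col9a3 probe set, 1460734_PM_at, ranged from 5.47 to 9.43 in CDS and from 2.42 to 4.59 in ES, and read 9.10 to 9.41 in eMC CIC-DUX4, against 3.57 to 4.27 in eMC empty, which lay below the dip in every array.

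The collagen XI genes differed from each other. Col11a1 (1449154_PM_at) ranged from 7.46 to 12.53 in CDS, with a median of 11.69, and from 1.77 to 8.88 in ES, with a median of 5.21. It read 11.23, 11.01, 11.26 and 11.32 in eMC CIC-DUX4, against 8.25, 6.03, 9.76 and 10.26 in eMC empty. CDS 5 was the low CDS array and lay under its own dip of 8.09. In ES, 3 of 6 arrays (ES 46, ES 48 and ES 51) were above theirs, the most of any member probe set. The other Col11a1 probe set, 1418599_PM_at, had the same low CDS array and lay at 6.08 to 11.96 in CDS, 2.05 to 7.05 in ES, 11.00 to 11.28 in eMC CIC-DUX4, against 6.36 to 10.12 in eMC empty. It was above the dip in 1 of 6 ES arrays, ES 51. Col11a2 (1423578_PM_at) ranged from 2.35 to 9.06 in CDS, with a median of 3.66, and from 1.73 to 2.44 in ES, with a median of 2.13. It read 7.80, 7.88, 6.56 and 6.24 in eMC CIC-DUX4, against 3.04, 3.27, 2.67 and 2.35 in eMC empty. CDS 2, the CDS array of high median, was the only array outside eMC CIC-DUX4 in which Col11a2 was above the dip.

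**Figure D2:**
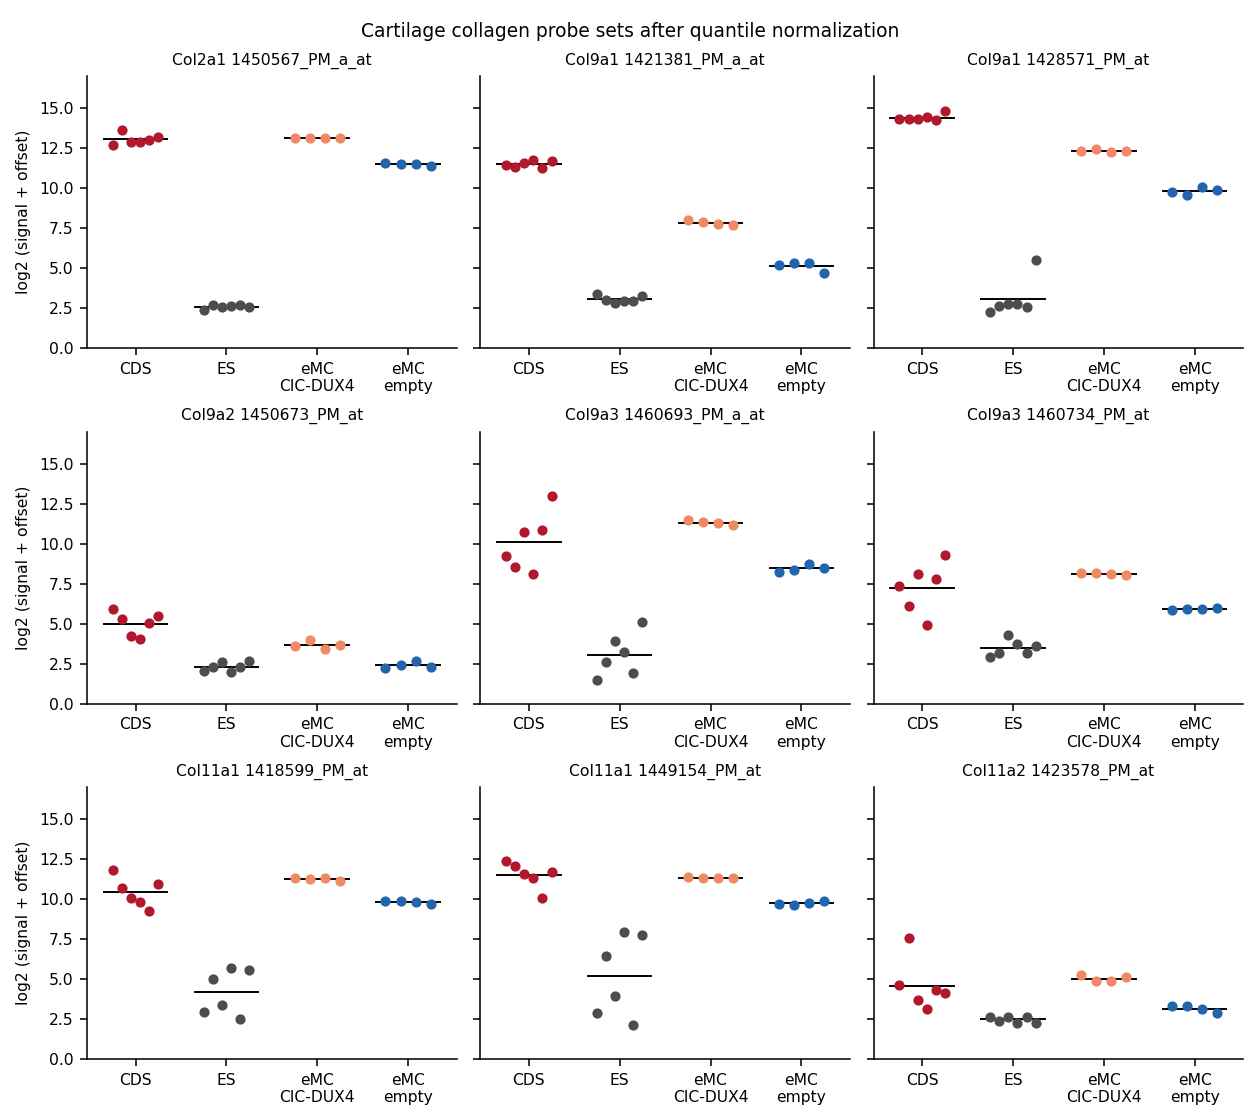
The same 9 probe sets after quantile normalization (vertical axis, log2), by group; points are arrays and lines group means. The eMC groups tighten, and Col9a2 lies between 3.45 and 3.98 in eMC CIC-DUX4 and between 2.26 and 2.65 in eMC empty.

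The order of the 4 groups can be read from the quantile means. Col2a1 averaged 13.06 ± 0.33 in CDS (SD, n = 6), 2.60 ± 0.13 in ES (n = 6), 13.14 ± 0.02 in eMC CIC-DUX4, against 11.51 ± 0.07 in eMC empty (n = 4 each), so CDS and eMC CIC-DUX4 did not differ beyond their spread. Col9a1 (1428571_PM_at) averaged 14.40 ± 0.22 in CDS, 3.09 ± 1.21 in ES, 12.34 ± 0.07 in eMC CIC-DUX4, against 9.82 ± 0.22 in eMC empty, with all neighbours in the order further apart than their spread. Col9a3 (1460693_PM_a_at) averaged 10.08 ± 1.80 in CDS, 3.06 ± 1.33 in ES, 11.31 ± 0.14 in eMC CIC-DUX4, against 8.45 ± 0.22 in eMC empty, where the CDS values overlapped both eMC groups. Col11a1 (1449154_PM_at) averaged 11.52 ± 0.80 in CDS, 5.19 ± 2.53 in ES, 11.33 ± 0.04 in eMC CIC-DUX4, against 9.76 ± 0.10 in eMC empty, with CDS and eMC CIC-DUX4 overlapping. Col11a2 averaged 4.60 ± 1.55 in CDS, 2.50 ± 0.18 in ES, 5.04 ± 0.19 in eMC CIC-DUX4, against 3.18 ± 0.21 in eMC empty, and Col9a2 4.99 ± 0.73, 2.32 ± 0.27, 3.67 ± 0.22 and 2.41 ± 0.18 in the same groups; both lie in the dim part of the distribution, where ES and eMC empty were near each other.

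The first comparison, eMC CIC-DUX4 against eMC empty, asks what had changed in the mesenchymal cells 48 hours after they received the fusion. All 9 probe sets were higher in eMC CIC-DUX4 after quantile normalization, and the groups did not overlap in any of them, as was so for 24.9% of all probe sets. Col2a1, above the dip in every eMC empty array, changed by 1.63 ± 0.04 (log2, SE), or 3.10-fold. Col9a1 (1428571_PM_at) changed by 2.53 ± 0.09 and Col11a1 by 1.44 ± 0.07 and 1.56 ± 0.07, each with 3 of 4 eMC empty arrays above the dip, and Col9a3 (1460693_PM_a_at), with 2 of 4, by 2.86 ± 0.11. The other 4 probe sets had no eMC empty array above its dip, so that their changes rest on background signals there: 2.72 ± 0.19 for Col9a1 (1421381_PM_a_at), 2.21 for Col9a3 (1460734_PM_at), 1.86 ± 0.17 for Col11a2 and 1.26 ± 0.15 for Col9a2. By limma with Benjamini-Hochberg adjustment over all probe sets, an adjusted p under 0.05 and a log2 fold change of at least 1, 9 of 9 were called higher, the highest adjusted p being 1.72e-05, where 7.5% of all probe sets were called higher and 13.6% in either direction.

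On the deposited scale 8 of the 9 were called higher, but so were 43.4% of all probe sets (47.5% in either direction), whose median change was 1.98. Deposited changes were 5.48 ± 0.38 and 3.35 ± 0.83 for Col9a1, 4.54 ± 0.80 and 5.37 ± 0.35 for Col9a3, 2.36 ± 0.72 and 2.63 ± 0.80 for Col11a1, 4.29 ± 0.52 for Col11a2 and 1.15 ± 0.15 for Col2a1. Of these, 3 had eMC empty below the dip throughout: in eMC CIC-DUX4, Col9a3 (1460734_PM_at) was higher by at least 5.32-fold, Col9a1 (1421381_PM_a_at) by at least 4.67-fold and Col11a2 by at least 1.20-fold. Col9a2 was not called (2.44 ± 1.18, adjusted p = 0.109). The change of Col2a1 lay 0.83 below the median of all probe sets, a difference of -0.83. With every array scaled to the same median it was -0.47 (adjusted p = 0.846), so the direction of Col2a1 depends on the scaling. Under that scaling 0 of the 9 were called, and the share of all probe sets called is not given here. Col9a1 (1421381_PM_a_at) at 3.87 and Col9a3 (1460734_PM_at) at 3.76 each had an adjusted p of 0.2 there. Without eMC CIC-DUX4 6 neither Col11a1 probe set was called as deposited (adjusted p = 0.054 and 0.0519), and without eMC CIC-DUX4 8 Col9a2 was (0.036). Without eMC CIC-DUX4 5 and 6, the arrays of high median, 5 of 9 were called as deposited and 9 of 9 after quantile normalization. Shares of all probe sets are not given for fits without arrays.

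These are bulk samples, in which fewer cells of a type and less RNA per cell cannot be told apart. Macrophage markers (4 of 4 measured), summed, were 7.45 to 11.83 in CDS, 10.49 to 12.77 in ES, 12.10 to 12.27 in eMC CIC-DUX4, against 7.77 to 11.04 in eMC empty (log2 of the summed signal). All sums are of deposited signals, which over all probe sets were higher in eMC CIC-DUX4 than in eMC empty by a median of 1.98. After quantile normalization Cd14 averaged 9.89 in eMC CIC-DUX4, against 8.10 in eMC empty, and in the same order Cd68 11.48 against 10.04, Adgre1 8.28 against 7.76 and Csf1r 5.10 against 5.47. Osteoblast markers (5 of 6 measured) summed to 5.89 to 11.65 in CDS, 3.77 to 7.74 in ES, 5.74 to 9.20 in eMC CIC-DUX4, against 4.29 to 5.15 in eMC empty, where 0 of 5 were above the dip. After quantile normalization these 5 averaged 3.28 in eMC CIC-DUX4, against 2.95 in eMC empty. Phex was the osteoblast marker above the dip in all 3 eMC CIC-DUX4 arrays that have one, with a quantile mean of 4.54 in eMC CIC-DUX4, against 2.49 in eMC empty. Keratinocyte markers (4 of 4) summed to 11.17 to 11.33 in eMC CIC-DUX4, against 9.61 to 10.62 in eMC empty. After quantile normalization they were not higher on average, at 6.76 in eMC CIC-DUX4, against 7.03 in eMC empty. Summed markers of endothelium were 12.07 to 12.90 in CDS, 8.17 to 11.07 in ES, 5.78 to 8.90 in eMC CIC-DUX4, against 3.94 to 4.67 in eMC empty (4 of 4 measured). The sums of eMC CIC-DUX4 5 and 6, the arrays of high median, were 7.80 and 8.90, and those of arrays 7 and 8 were 5.78 and 6.35. After quantile normalization these endothelial markers averaged 3.23 in eMC CIC-DUX4, against 3.04 in eMC empty. No eMC empty array had any of the 4 above its dip, and Tie1 lay below it in ES and eMC CIC-DUX4 too. Summed skeletal muscle markers (5 of 5 measured) were 10.11 to 18.01 in CDS, 3.67 to 17.41 in ES, 11.76 to 11.95 in eMC CIC-DUX4, against 13.35 to 13.54 in eMC empty. ES 51, the ES array with the highest deposited signals of Col9a1 (1428571_PM_at), Col9a3 (1460693_PM_a_at) and both Col11a1 probe sets (ES 48 was higher at both Col11a1 probe sets after quantile normalization), was the one at 3.67, with 0 of 5 markers above its dip, whereas the other ES arrays had 5 of 5. The part of any of these cell types in the results was not tested.

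**Figure D3:**
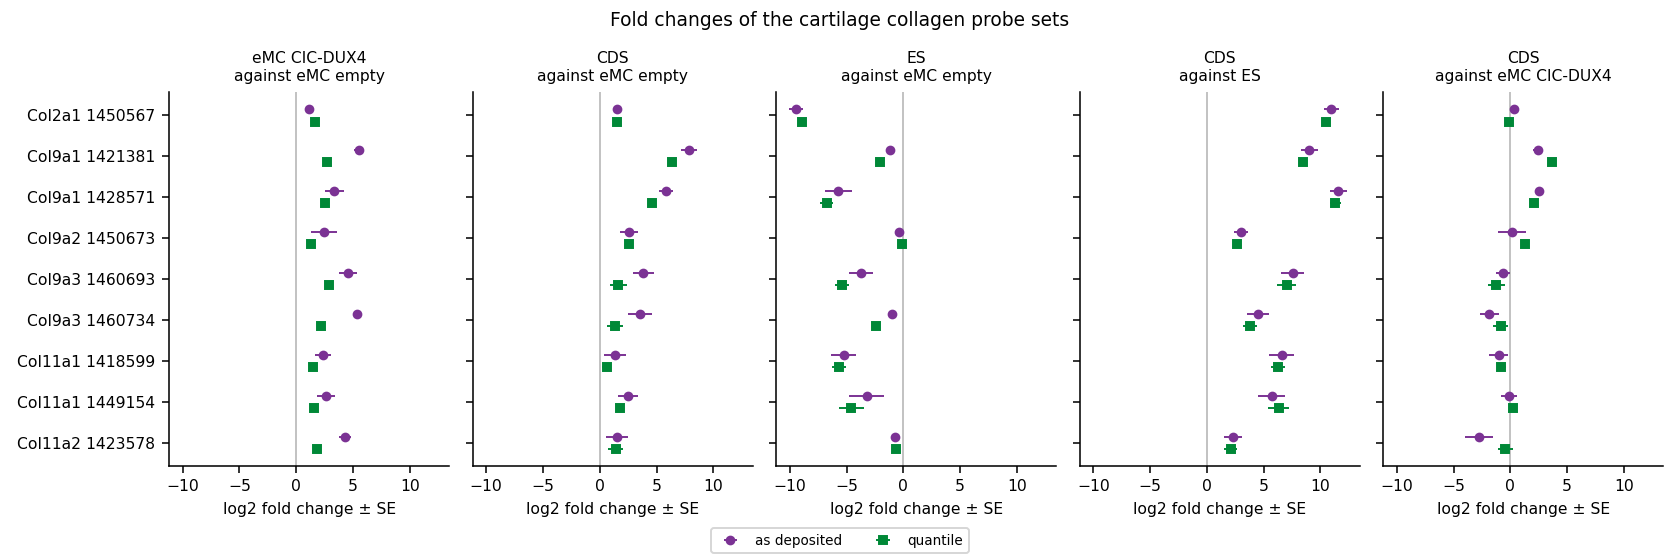
Log2 fold change ± SE of the 9 probe sets (rows) in each of the 5 comparisons (panels), as deposited (circles) and after quantile normalization (squares). In CDS against ES all 9 lie above 0 on both scales, and in CDS against eMC CIC-DUX4 the Col9a1 pair stands above 2 while Col2a1 lies near 0.

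CDS against eMC empty sets the tumors beside mesenchymal cells without the fusion. Col9a1 was far higher in CDS: 1421381_PM_a_at by 7.87 ± 0.71 (quantile 6.38 ± 0.22), at least 24.6-fold, and 1428571_PM_at by 5.86 ± 0.61 (quantile 4.59 ± 0.14). Col2a1 was higher by 1.52 ± 0.32 (quantile 1.55 ± 0.16) and Col9a2 by 2.60 ± 0.80 (quantile 2.58 ± 0.35), Col9a2 with every eMC empty array below its dip. Col9a3 was called as deposited (3.84 ± 0.90 and 3.54 ± 1.08, the second at least 1.49-fold with 4 of 6 CDS arrays above the dip) but not after quantile normalization (1.63 ± 0.77, adjusted p = 0.0918, and 1.35 ± 0.68, adjusted p = 0.114). For Col11a1 the reverse held at 1449154_PM_at, with 2.51 ± 0.89 and an adjusted p of 0.0535 as deposited and 1.76 ± 0.35 and 0.00123 after quantile normalization, while 1418599_PM_at was called on neither scale (1.33 ± 0.95 and quantile 0.63 ± 0.40). Col11a2 was not called either (1.53 ± 0.95, adjusted p = 0.246, and quantile 1.42 ± 0.67, adjusted p = 0.0913). In all, limma called 6 of 9 higher as deposited, against 13.2% of all probe sets (18.1% in either direction), and 5 of 9 after quantile normalization, against 18.2% (38.1%). With arrays scaled to the same median 3 of 9 were called, both Col9a1 probe sets and Col9a2, and Col2a1 was not (0.72, adjusted p = 0.492). The share of all probe sets called under that scaling is not given here. The deposited calls of Col9a2 and Col9a3 (1460734_PM_at) were lost without any 1 of the 4 eMC empty arrays (adjusted p 0.0521 to 0.0924), and that of Col9a3 (1460734_PM_at) also without CDS 3 (0.0529) or CDS 6 (0.0536). Without CDS 4, 8 of 9 were called after quantile normalization, both Col9a3 probe sets and Col11a2 being added. Both Col11a1 probe sets were called as deposited without CDS 5, and 1449154_PM_at also without eMC empty 6 or 7 (adjusted p 0.0389 and 0.0192).

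ES against eMC empty went the other way. Col2a1 was at least 94.3-fold lower in ES, with a change of -9.45 ± 0.62 (quantile -8.91 ± 0.24). Col9a1 (1428571_PM_at) changed by -5.72 ± 1.19 (quantile -6.73 ± 0.57), Col11a1 (1418599_PM_at) by -5.25 ± 1.11 (quantile -5.66 ± 0.65) and Col9a3 (1460693_PM_a_at) by -3.73 ± 1.07 (quantile -5.39 ± 0.62). Col11a1 (1449154_PM_at) was called after quantile normalization alone (-4.57 ± 1.11, adjusted p = 0.00508), as was Col9a3 (1460734_PM_at, -2.43 ± 0.28, adjusted p = 3.33e-05), which was below the dip in every array of both groups. Col9a1 (1421381_PM_a_at) was called on both scales, at -1.16 ± 0.23 and quantile -2.05 ± 0.21, but both groups lay below the dip there too. Col9a2 (-0.38 ± 0.12) and Col11a2 (-0.74 ± 0.19), also below the dip in both groups, were not called on either scale. The calls were 5 of 9 lower as deposited, against 9.77% of all probe sets (35.6% in either direction), and 7 of 9 after quantile normalization, against 18.9% (37%), of which 1 and 2 are between groups that both lie below the dip.

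CDS against ES, the comparison between the tumor types, gave the largest median change over the 9 probe sets, 6.58 as deposited (quantile 6.34). Col2a1 was at least 269-fold higher in CDS, at 10.97 ± 0.65 (quantile 10.46 ± 0.26), and Col9a1 (1421381_PM_a_at) at least 86.2-fold, at 9.04 ± 0.74 (quantile 8.43 ± 0.26). Col9a1 (1428571_PM_at) was higher by 11.57 ± 0.77 (quantile 11.32 ± 0.47). Col9a3 was higher by 7.58 ± 1.02 (1460693_PM_a_at; quantile 7.02 ± 0.81) and 4.50 ± 0.96 (1460734_PM_at; quantile 3.78 ± 0.61), the second at least 5.23-fold with 4 of 6 CDS arrays above the dip, and Col11a1 by 6.58 ± 1.09 (1418599_PM_at; quantile 6.28 ± 0.63) and 5.73 ± 1.19 (1449154_PM_at; quantile 6.34 ± 0.94). Col9a2 was higher by 2.98 ± 0.63 (quantile 2.67 ± 0.31) and Col11a2 by 2.27 ± 0.79 (quantile 2.09 ± 0.56), with ES below the dip throughout. CDS 2 was the only CDS array with Col11a2 above the dip, and without it the change of Col11a2 was 1.33. Limma called 9 of 9 higher on both scales, where 11.1% of all probe sets were called higher as deposited (19.8% in either direction) and 15.1% after quantile normalization (30.8%). All 9 were also called with arrays scaled to the same median, for which no share of all probe sets is given here. The call of Col11a2 as deposited, with an adjusted p of 0.0472, was lost without CDS 5, without CDS 6 or without any 1 of the 6 ES arrays (adjusted p 0.0668 to 0.0882), and with the offset doubled, without the filter or without the trend (0.0626 to 0.0997). It was kept after quantile normalization without each array in turn.

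CDS against eMC CIC-DUX4 sets tumors beside cultured cells that carry the same fusion. Col9a1 was higher in CDS at both probe sets, by 2.39 ± 0.37 at 1421381_PM_a_at (quantile 3.66 ± 0.16) and 2.52 ± 0.28 at 1428571_PM_at (quantile 2.06 ± 0.11), with no overlap between the groups. Col2a1 differed by 0.36 ± 0.25 (adjusted p = 0.321), and by -0.09 ± 0.15 after quantile normalization (adjusted p = 0.657). Col9a2 was called after quantile normalization alone (1.32 ± 0.36, adjusted p = 0.00887; deposited 0.16 ± 1.22). Col9a3 changed by -0.69 ± 0.62 and -1.84 ± 0.85 (quantile -1.23 ± 0.77 and -0.86 ± 0.68) and Col11a1 by -1.03 ± 0.82 and -0.12 ± 0.72 (quantile -0.82 ± 0.40 and 0.20 ± 0.35), none past the test. Col11a2 was not called at -2.76 ± 1.20 (adjusted p = 0.121; quantile -0.44 ± 0.68), but without CDS 2 it was called lower in CDS on both scales, at -3.70 (adjusted p = 0.00455) and quantile -1.04 (adjusted p = 0.0156). Limma thus called 2 of 9 higher as deposited, where 4.47% of all probe sets were (16.6% in either direction), and 3 of 9 after quantile normalization, where 17% were (36.1%). With arrays scaled to the same median 0 of 9 were called, the Col9a1 changes being 3.20 (adjusted p = 0.217) and 3.34 (adjusted p = 0.139). The share of all probe sets called under that scaling is not given here. After quantile normalization, without CDS 6 Col9a3 (1460693_PM_a_at) was called lower in CDS (-1.81, adjusted p = 0.0117), and without CDS 1 so was Col11a1 (1418599_PM_at, -1.09, adjusted p = 0.0123).

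How far the chains moved together was tested within arrays, as the difference of 2 log2 signals of 1 array between groups, which takes out the array's scale factor but sets no level of one probe set against another's. The 5 pairs of members tested in 5 comparisons made 25 exact permutation tests, with Benjamini-Hochberg adjustment over them. Both members of a pair were above the dip in most arrays of both groups in 4 of the 25, and 1 of these passed, on both scales. Col9a1 minus Col9a3 was 4.07 ± 1.16 in CDS (SD, n = 6), against 0.86 ± 0.12 in eMC CIC-DUX4 (n = 4), and both probe sets were above the dip in every array that has one. The difference was higher in CDS in all 6 arrays, by 3.21 (exact p = 0.00952, adjusted 0.0397; quantile 3.29, adjusted 0.0298). Col9a1 and Col9a3 thus changed unequally between CDS and eMC CIC-DUX4. The pairs with Col9a2, itself mostly below the dip, did not pass there: Col9a1 minus Col9a2 differed by 2.35 (exact p = 0.157, adjusted 0.262; quantile 0.75, adjusted 0.126) and Col9a2 minus Col9a3 by 0.85 (exact p = 0.6, adjusted 0.64; quantile 2.55, adjusted 0.056). In ES, Col9a1 and Col9a3 were below the dip in 5 of 6 arrays each, and their difference of 0.07 ± 0.77 there is one between background signals.

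**Figure D4:**
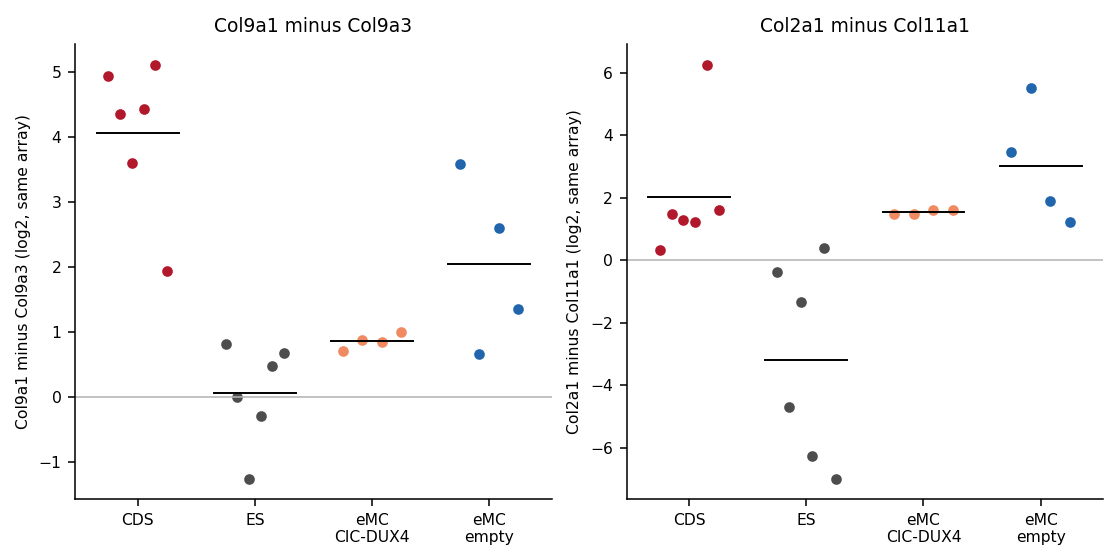
Difference of 2 log2 signals within each array (vertical axis), Col9a1 minus Col9a3 (left) and Col2a1 minus Col11a1 (right), by group; points are arrays and lines group means. Col9a1 minus Col9a3 averages 4.07 in CDS and 0.86 in eMC CIC-DUX4; the ES points rest mostly on signals below the dip.

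Col2a1 minus Col11a1 averaged 2.04 ± 2.13 in CDS, 1.55 ± 0.08 in eMC CIC-DUX4, against 3.03 ± 1.91 in eMC empty. CDS and eMC CIC-DUX4 differed by 0.48 (exact p = 0.962), CDS and eMC empty by -0.995 (exact p = 0.471, adjusted 0.561), and eMC CIC-DUX4 and eMC empty by -1.48 (exact p = 0.2, adjusted 0.312, where 4 against 4 cannot go below 0.0286). These p-values do not show that the genes moved alike. In ES, where Col2a1 was below the dip in all 6 arrays and Col11a1 in 3, the difference was -3.20 ± 3.18 and bounds nothing exactly. Of all 25 differences, 8 passed an adjusted p of 0.05 as deposited and 15 after quantile normalization, 7 and 14 of them with a member that was not above the dip in most arrays of a group. Without the 3 arrays of high median 2 passed, and without ES 41, ES 46, ES 47, ES 48 or ES 49 each time 3. Leaving out the 3 arrays keeps only eMC CIC-DUX4 7 and 8 of their group. Tests with that group are then too small to pass after adjustment, whatever their values, Col9a1 minus Col9a3 among them.

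Other genes of the cartilage matrix were compared by lists chosen with earlier results of these data known, each gene by its probe set of the highest mean. Of 14 non-collagen matrix genes tested, eMC CIC-DUX4 against eMC empty gave 11 called higher and 0 lower (46.4% and 4.62% of all genes), with a median change of 4.32 against 2.08 over all genes, and 8 higher and 0 lower after quantile normalization (8.18% and 4.79%). With the highest fitted changes, Hapln1, which links aggrecan to hyaluronan, was higher by at least 6.02-fold (5.90 ± 0.36, quantile 3.42 ± 0.19), Snorc, a chondrocyte membrane proteoglycan, by at least 3.34-fold (5.65 ± 0.37, quantile 3.58 ± 0.22), and Matn1, a matrilin of cartilage, by at least 1.98-fold (5.35 ± 0.44, quantile 3.22 ± 0.19).

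In CDS against eMC CIC-DUX4 the same list split, with 3 of 14 called higher and 6 lower on either scale (5.09% and 12.8% of all genes as deposited, 16.7% and 20.3% after quantile normalization). Cnmd, which encodes the vessel inhibitor chondromodulin, averaged 2.52 ± 0.66 in CDS (SD, n = 6), against 9.93 ± 0.08 in eMC CIC-DUX4 (n = 4), and was at least 17.3-fold lower in CDS (-7.40 ± 0.83, quantile -6.47 ± 0.41). Epyc, a small leucine-rich proteoglycan of cartilage, was at least 8.61-fold lower (-6.93 ± 0.82, quantile -5.64 ± 0.19) and Hapln1 at least 12.5-fold (-6.66 ± 0.83, quantile -5.42 ± 0.39). These 3 genes lay below the dip in all 6 CDS arrays, where Col2a1 and both Col9a1 probe sets lay above it. Against eMC empty, Prg4, the lubricant of joint surfaces, was at least 71.9-fold higher in CDS (9.12 ± 0.64, quantile 7.01 ± 0.38) and Comp, a pentameric matrix protein, at least 12.3-fold (6.51 ± 0.83, quantile 4.43 ± 0.47), both with eMC empty below the dip throughout. Fmod, a fibril-binding proteoglycan above the dip in 1 of 4 eMC empty arrays, was higher by 5.48 ± 0.73 (quantile 3.28 ± 0.26). In all, 4 of 14 were called higher and 2 lower (14.4% and 5.75% of all genes), and 5 and 3 after quantile normalization (17.6% and 19.3%). Between CDS and ES the same genes differed by 8.76 ± 1.07 (Prg4), 7.23 ± 1.03 (Comp) and 6.75 ± 1.04 (Fmod), with 1, 1 and 2 of 6 ES arrays above the dip, where 7 of 14 were higher and 0 lower as deposited (11.2% and 9.85% of all genes) and 6 and 0 after quantile normalization (16.8% and 16.2%). In ES against eMC empty 0 of 14 were higher and 4 lower (29.9% and 10.9%), and 0 and 7 after quantile normalization (17.5% and 19%), among them Cnmd (-3.80 ± 0.52) and Epyc (-3.44 ± 0.46). Each of these 2 was above the dip in 0 of 6 ES and 1 of 4 eMC empty arrays, so both changes rest mostly on background signals.

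**Figure D5:**
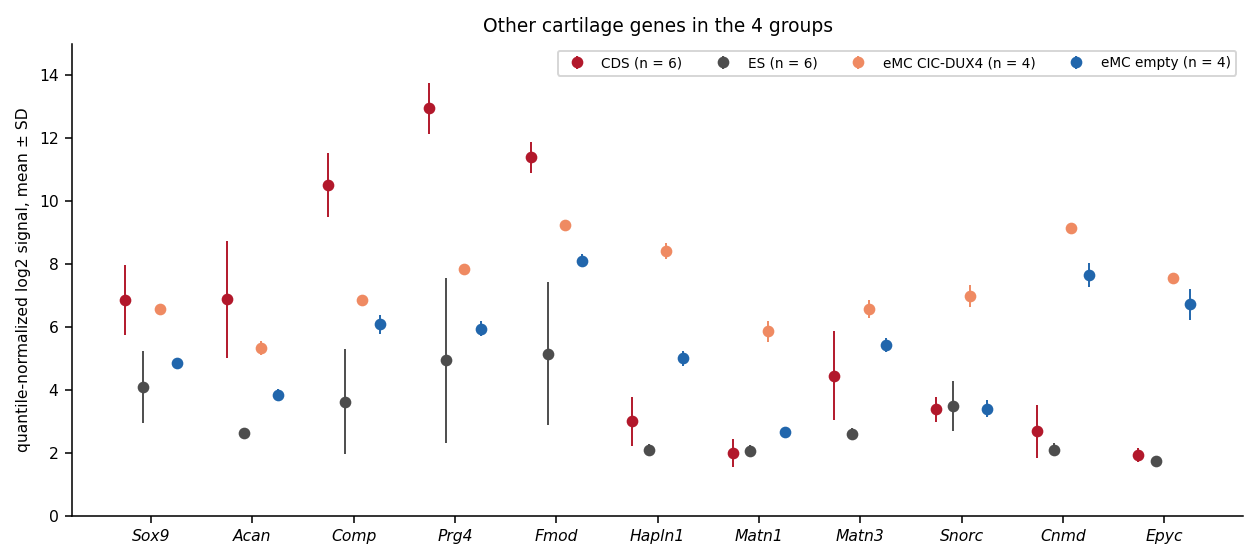
Quantile-normalized log2 signal (vertical axis), mean ± SD, of the factor Sox9 and of non-collagen cartilage genes in CDS and ES (n = 6 each), eMC CIC-DUX4 and eMC empty (n = 4 each). Prg4, Comp and Fmod are highest in CDS, while Cnmd, Epyc and Hapln1 are brighter in eMC CIC-DUX4 than in CDS.

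Among 7 tested cartilage transcription factors, 4 were called higher in eMC CIC-DUX4 than in eMC empty as deposited (46.4% of all genes) and 2 after quantile normalization (8.18%), 0 lower on either scale. Sox9 averaged 8.33 in eMC CIC-DUX4, against 3.50 in eMC empty, at least 2.77-fold (4.83 ± 0.37, quantile 1.71 ± 0.17, adjusted p = 3.48e-06), with every eMC empty array below the dip. In CDS against eMC empty 3 were higher and 0 lower (14.4% of all genes higher), and 4 and 0 after quantile normalization (17.6%). Foxc1, a forkhead factor, was higher by at least 2.53-fold (4.52 ± 1.08, quantile 2.94 ± 0.36) and Trps1, a zinc finger factor of the growth plate, by at least 4.36-fold (4.48 ± 1.00, quantile 2.28 ± 0.33). Sox9 was called there after quantile normalization alone (2.02 ± 0.52, adjusted p = 0.0063; deposited 3.07 ± 1.12, adjusted p = 0.0596), and CDS arrays ranged from 3.86 to 9.24 in its signal. Against ES, 2 of the 7 were higher in CDS (11.2% of all genes) and 3 after quantile normalization (16.8%), Foxc1 by 5.07 ± 1.10 with 1 of 6 ES arrays above the dip. Against eMC CIC-DUX4, 0 of the 7 were called in CDS as deposited and 3 higher after quantile normalization (16.7% of all genes), and Sox9 was called on neither scale (-1.77 ± 1.00, quantile 0.31 ± 0.52). ES against eMC empty had 2 higher as deposited (29.9% of all genes), Trps1 by at least 4.93-fold (4.66 ± 0.78) and Zbtb20 by at least 2.24-fold (4.03 ± 0.87), which were not called after quantile normalization.

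Col10a1, the collagen of hypertrophic cartilage, lay above the dip in 1 array only, of eMC CIC-DUX4 (not counting array 6 of that group, which has no dip), and did not pass the filter. Of 13 chondrocyte markers, which include the 6 members, 12 lay above the dip in every eMC CIC-DUX4 array with a dip, 4 in every CDS array, 1 in every eMC empty array and 0 in every ES array. Matn1 and Hapln1 were above it in no CDS array. The share of all probe sets above the dip also differed. It was 38.6% to 70.9% in eMC CIC-DUX4, 11.7% to 57.3% in CDS, 27.9% to 40.4% in ES, and 11.1% to 26.9% in eMC empty. Averaged after quantile normalization, the 13 markers were 7.95 in eMC CIC-DUX4, 7.36 in CDS, 5.87 in eMC empty and 3.03 in ES. Of 6 other collagens of cartilage and its fibrils that were tested, 2 were higher in eMC CIC-DUX4 than in eMC empty as deposited (46.4% of all genes) and 0 after quantile normalization (8.18%). In CDS 2 were higher than in eMC empty on both scales (14.4%, quantile 17.6%), namely Col27a1 (3.83 ± 1.02, quantile 2.02 ± 0.34) and Col16a1 (3.41 ± 1.08, quantile 1.68 ± 0.35). Col27a1 (2.64 ± 0.94, quantile 3.18 ± 0.37) was also among the 3 that were higher in CDS than in ES as deposited (11.2% of all genes), with 4 after quantile normalization (16.8%). In ES against eMC empty 3 were lower as deposited (10.9%) and 5 after quantile normalization (19%), Col6a3 by -2.44 ± 0.47 (quantile -1.80 ± 0.55).

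The interstitial fibrillar collagens, of types I, III and V, which are found in most connective tissue, gave 0 calls of 6 in CDS against eMC empty on both scales (median change -0.47, quantile -0.09). In CDS against ES, 4 of 6 were higher as deposited (11.2% of all genes) and 6 after quantile normalization (16.8%), with 0 lower, and Col1a1 differed by 3.62 ± 0.50 (quantile 4.44 ± 0.58) and Col5a1 by 2.72 ± 0.38 (quantile 3.19 ± 0.47). In ES against eMC empty 4 were lower on both scales (10.9%, quantile 19%), Col1a1 by -4.11 ± 0.60 (quantile -4.55 ± 0.70). In eMC CIC-DUX4 against eMC empty 2 were higher and 2 lower as deposited (46.4% and 4.62% of all genes) and 2 higher and 0 lower after quantile normalization (8.18% and 4.79%), Col5a3 by 2.85 ± 0.79 (quantile 1.57 ± 0.24). In CDS against eMC CIC-DUX4 the counts were 1 higher and 0 lower as deposited (5.09% and 12.8%) and 0 higher and 2 lower after quantile normalization (16.7% and 20.3%).

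Of 20 genes of collagen synthesis and processing, 14 were higher and 0 lower in CDS against ES on both scales (11.2% of all genes higher, quantile 16.8%; median change 2.11, against 0.02 over all genes). They include Loxl1, a cross-linking oxidase (3.99 ± 0.44, quantile 4.73 ± 0.59), P4ha2, a subunit of prolyl hydroxylase (3.39 ± 0.79, quantile 3.76 ± 0.61), and Creb3l2, a factor that raises secretory capacity in chondrocytes (3.09 ± 0.35, quantile 3.66 ± 0.31). In ES against eMC empty 11 were lower and 1 higher as deposited (10.9% and 29.9% of all genes), and 13 lower and 0 higher after quantile normalization (19% and 17.5%), P4ha2 by -4.22 ± 0.94 (quantile -4.40 ± 0.58). In CDS against eMC empty 5 were higher and 2 lower (14.4% and 5.75% of all genes), and 5 and 3 after quantile normalization (17.6% and 19.3%), with Creb3l2 highest at 4.34 ± 0.64 (quantile 3.25 ± 0.17). In eMC CIC-DUX4 against eMC empty 8 were higher and 4 lower as deposited (46.4% and 4.62% of all genes) and 4 higher and 0 lower after quantile normalization (8.18% and 4.79%), Pcolce2, an enhancer of procollagen cleavage, by 4.73 ± 0.75 (quantile 1.95 ± 0.13). In CDS against eMC CIC-DUX4 3 were higher and 3 lower (5.09% and 12.8% of all genes), and 2 and 5 after quantile normalization (16.7% and 20.3%), and Pcolce2 changed by -3.85 ± 1.10 (quantile -2.58 ± 0.64).

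Of 5 collagen-cleaving proteases, Mmp13, which cuts collagen II, and Mmp9, a gelatinase, were higher in CDS in each of its 3 comparisons. Against ES 3 of the 5 were higher and 0 lower (11.2% and 9.85% of all genes), and 4 and 0 after quantile normalization (16.8% and 16.2%). Against eMC CIC-DUX4 2 were higher and 1, Mmp8 (-3.92), lower on both scales (5.09% and 12.8%, quantile 16.7% and 20.3%). Against eMC empty 2 were higher and 1, Mmp14 (-1.31), lower as deposited (14.4% and 5.75%). After quantile normalization 2 were higher and 0 lower there (17.6% and 19.3%). Mmp13 averaged 13.44 ± 0.90 in CDS, 8.97 ± 2.74 in ES (SD, n = 6 each), 10.79 ± 0.09 in eMC CIC-DUX4, against 9.84 ± 1.00 in eMC empty (n = 4 each). It was higher in CDS by 4.47 ± 0.88 against ES (quantile 4.94 ± 1.10), 2.65 ± 0.39 against eMC CIC-DUX4 (quantile 2.60 ± 0.27) and 3.60 ± 0.50 against eMC empty (quantile 2.92 ± 0.27). Of 6 collagen receptors, 0 were called between CDS and ES on either scale. In eMC CIC-DUX4 against eMC empty 3 receptors were higher and 0 lower as deposited (46.4% and 4.62% of all genes), and 2 and 1 after quantile normalization (8.18% and 4.79%), among them the collagen II receptor subunit Itga10, higher by at least 2.35-fold (4.65 ± 0.40, quantile 1.55 ± 0.26). The call of Ddr1 depended on the scaling, being higher as deposited (3.22 ± 0.45) and lower after quantile normalization (-1.05 ± 0.17). Ddr1 was above the dip in 0 of 4 eMC empty arrays.

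The genes whose quantile-normalized pattern over the 20 arrays lay nearest to a member were found by the root mean square difference after centring, among 11821 genes, as a description. Nearest to Col2a1 were Dlk1 (0.549), Bmp4 (1.12) and Peg3 (1.15), to Col9a1 Cytl1 (1.06), Col4a5 (1.21) and Cdkn1c (1.23), and to Col9a3 Twist1 (1.29), Cdkn1c (1.41) and Bmp4 (1.42). Dlk1 averaged 12.73 in CDS, 2.98 in ES, 13.40 in eMC CIC-DUX4, against 12.48 in eMC empty, all after quantile normalization. Cytl1 averaged 15.02 in CDS, 3.16 in ES, 11.13 in eMC CIC-DUX4, against 8.71 in eMC empty. Nearest to Col11a1 were Ptn (1.06), Ccnd2 (1.23) and Adhfe1 (1.26), to Col11a2 Thsd4 (0.622), Boc (0.647) and Lama3 (0.669), and to Col9a2 Klf10 (0.458), Lbhd2 (0.468) and Hpcal1 (0.484). Col9a2 and Col11a2 themselves varied less over the arrays, with SDs of 1.25 and 1.34, against 4.76 for Col2a1.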

How the data were processed

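Per the labels' protocols, 100 ng of total RNA of each sample was biotin-labelled for an Affymetrix mouse array with perfect-match probes. The authors deposited log2 signals, and the submitters' processing notes name MAS5. Version, background method and scaling of MAS5 were not given in the sources used here. All columns belonged to a listed sample (0 others), and 0 arrays had identical values. Precision is limited by how many arrays a group has.

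Values were made linear again and analysed as log2(signal + 1.42305), with an offset of 0.25 times the median over arrays of their median signal. Of 45141 probe sets, 104 controls were left out. The array's gene table gives 1 symbol for 28898 of the rest, several for 551 and none for 15588. Tests covered the 26897 probe sets (12343 genes) that lay over the median of their array in 4 arrays or more. Groups were taken from the sample titles. Each of 5 comparisons was fitted on its 2 groups in R 4.3.3 with limma 3.58.1, using a mean-dependent prior variance, and p was adjusted by Benjamini-Hochberg over all probe sets tested; a call needs adjusted p under 0.05 together with a log2 fold change of 1 or more in size. All tests are two-sided. The comparisons share arrays. For gene lists and differences within arrays, the probe set with the highest mean over the 20 arrays stood for its gene.

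The dip is where the density of an array's values is lowest between its 2 humps (bandwidth 0.35; none where under 5% of values lie below it). An "at least" fold takes, in each dim array, the signal or the dip, whichever is higher, and sets their mean under the bright group's mean, on the deposited scale only. The log2 change beside it rests on signals below the dip. Where arrays of the bright group lie below their own dips, its mean rests partly on background too, and the bound is less sure. The members, the lists, the motifs, the tests and the rule for named genes (every member probe set, the 3 nearest genes of each member, and up to 3 called genes of a list in a comparison) were chosen with earlier results of these data known. Further list genes named for a member's role (Sox9 throughout, Itga10, Mmp9, Col10a1) and Cytl1 and Dlk1 with their group means were picked after their values were seen, as were Phex and the restriction of differences within arrays to pairs above the dip. Alternatives were other offsets, filters, scalings, spread models, summaries and thresholds, a block by replicate number, fits without each single array, and fits without the 3 arrays of high median; leaving out arrays after quantile normalization was added after seeing the data. The fitting steps were tested on simulated data with independent normal noise, of the spread after quantile normalization and equal in both groups. That simulation had no differences in distribution between arrays, so it does not cover the fits on the deposited scale. Promoters came from RefSeq (GRCm38.p6), which gave 5 stretches for 4 of the 6 members; those of Col2a1 and Col9a3 were not used here.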

Additional observations from a re-analysis of the deposited data

Results flagged for a closer look

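In the tumor groups and cultures each probe set was checked on both scales for an array standing apart from the rest of its group, 72 checks of 4 to 6 arrays in all. The highest or lowest array stood apart in 9. Chance gives about 1 in 20 for independent checks of normal values. These checks share arrays between the scales and between probe sets of a gene, so the 9 cannot be set against that rate. ES 51 stood above the other ES arrays for Col9a1 (1428571_PM_at), at 6.98 as deposited (next 2.30) and 5.53 after quantile normalization (next 2.77), and for Col11a1 (1418599_PM_at), at 7.05 as deposited (next 3.61). ES 47 stood above them for Col9a3 (1460734_PM_at), at 4.59 as deposited (next 2.85), although no ES array exceeded its dip there. CDS 5 stood below the other CDS arrays at both Col11a1 probe sets, at 6.08 (1418599_PM_at, next 10.43) and 7.46 (1449154_PM_at, next 11.31). Both were single flags of the deposited scale. CDS 5 had the second largest Actb excess, 1.16, and the highest dip of the CDS arrays, 8.09. CDS 6 had the largest Actb excess, 1.28, with Col11a1 at 11.11 and 11.81. The part of RNA quality or of the array in these flags was not tested. CDS 2 stood above the others for Col11a2, at 9.06 as deposited (next 4.41) and 7.58 after quantile normalization (next 4.66). CDS 6 stood above the others for Col9a1 (1428571_PM_at), at 14.83 after quantile normalization (next 14.42), a gap of well under 1 on the log2 scale.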

How the results depend on the processing

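Offsets, filters, the spread model, a threshold without the fold and an adjusted p of 0.01 kept every count of called probe sets within 1.5 times its value as reported. Single calls did change. Shares of all probe sets are not given for the alternatives, scaling to the same median among them, or for fits that leave out arrays. Their counts therefore show only which member calls were gained or lost. With all 4 groups in 1 limma fit, eMC CIC-DUX4 against eMC empty lost both Col11a1 calls (adjusted p = 0.0729 and 0.0941) and gained Col9a2 (0.038). Col11a2 was then called lower in CDS than in eMC CIC-DUX4 (-2.76, adjusted p = 0.0243). With 1 probe set per gene, counts are of members: 5, 4, 3, 5 and 1 called in the comparisons in the order given above. Scaling arrays to the same median gave 0 of 9 called in eMC CIC-DUX4 against eMC empty, 3 in CDS against eMC empty and 0 in CDS against eMC CIC-DUX4, and turned Col2a1 to -0.47 in the first of these and Col9a3 (1460693_PM_a_at) and Col11a1 (1449154_PM_at) to 0.13 and 0.70 in the last. Without the arrays of high median eMC CIC-DUX4 against eMC empty gave 5 of 9 calls, while 2 of 25 differences within arrays passed. The tests with CDS or eMC CIC-DUX4 then had fewer arrays, and those with eMC CIC-DUX4 were too small to pass after adjustment. Quantile normalization raised that number of differences to 15, and in CDS against eMC CIC-DUX4 turned Col2a1 to -0.0876 and Col11a1 (1449154_PM_at) to 0.20, neither called on any scale. The cause was not tested.

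Leaving out 1 array at a time gave 6 to 9 calls in eMC CIC-DUX4 against eMC empty (9 to 9 after quantile normalization), 4 to 8 in CDS against eMC empty (5 to 8), 5 to 6 in ES against eMC empty (7 to 7), 8 to 9 in CDS against ES (9 to 9), 2 to 3 in CDS against eMC CIC-DUX4 (3 to 4) and 3 to 9 differences within arrays. In CDS against eMC CIC-DUX4, Col9a2 then ran from -0.58 to 1.05 (-0.41 without CDS 2, -0.01 without CDS 4, -0.54 and -0.58 without eMC CIC-DUX4 7 and 8) and Col11a1 (1449154_PM_at) from -0.41 to 0.60, the highest without CDS 5.

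The titles give some groups the same replicate numbers. The deviations of same-numbered arrays did not all correlate (r of -0.18 to 0.42 over 3 pairs of the eMC groups, -0.0016 to 0.012 after quantile normalization). So few pairs cannot tell whether same-numbered arrays belong together, and the main fits ignore the number. With the number as a replicate block, a comparison rests only on numbers found in both groups. The block fits called 9 of 9 in eMC CIC-DUX4 against eMC empty (numbers 5, 6 and 7) and 5 in CDS against eMC empty (4, 5 and 6). In CDS against eMC CIC-DUX4 (5 and 6) they called 4 (1 higher, 3 lower), where Col9a2 turned to -2.48 and Col9a3 (1460693_PM_a_at) to 0.59. These changes are of CDS 5 and 6 against eMC CIC-DUX4 5 and 6 alone. Both of these eMC arrays are of high median (6.13 and 7.05), and the full groups were not compared. The block together with quantile normalization called 9, 5 and 3, and turned Col2a1 to -0.0525 and the Col9a3 probe sets to 0.51 and 0.38 in the last comparison. Depth cannot be given for arrays; Col9a2, and Col11a2 outside eMC CIC-DUX4, lie mostly below the dip, so their changes are the least certain.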
